A study of Mus musculus with 8 samples.

Results

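Translation initiation factor genes encode the proteins that place a ribosome on the start codon of a messenger RNA. They were taken as the protein-coding genes of GRCm38 RefSeq whose symbol begins with Eif1, Eif2, Eif3, Eif4, Eif5 or Eif6. The rule found 56 of the 21900 protein-coding genes, including the kinases and binding proteins that carry the same symbol stem. The rule itself goes by symbol and uses no measured value, but the members were chosen with earlier results of these data known.

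The study mapped binding sites of ZGLP1, whose zinc fingers resemble those of GATA factors, on the mouse genome. Cells of C57BL/6 x DBA2 background carried a V5-tagged Zglp1 that was overexpressed with doxycycline (Dox), and chromatin was pulled down with an antibody against V5. The 5 ChIP libraries came from primordial germ cell-like cells (PGCLCs) on culture day 7 (c7) with Dox, on day 8 (c8) with Dox, on day 7 with Dox and retinoic acid (RA), on day 8 with Dox and RA, and from embryonic stem cells (ESCs) with Dox and RA for 24 h. The 3 input libraries came from c8 PGCLCs with Dox, c8 PGCLCs with Dox and RA, and ESCs with Dox and RA. In PGCLCs the treatment began on day 3. PGCLCs had been expanded on m220 feeder cells and were sorted as SC+ and mCherry+, and ESCs as mCherry+. Every group shares the tagged protein and Dox, no library without them is listed, and each group has 1 library. The growth protocol names H18 and BDF1-2-1 lines and does not say which gave which library.

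The deposited values are the positions of 32927 peak summits in a single list that names no library and gives no height. The groups therefore could not be compared, the identity of the cells cannot be read from it, and the depth is unknown. A gene with no summit may be unbound or below the threshold of the peak caller. All results below are counts, distances and sequences, with no test: genes are not replicates of a condition, and neighbouring genes share summits.

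Initiation begins when eIF2 brings the initiator transfer RNA to the small ribosomal subunit, together with eIF1, eIF1A, eIF3 and eIF5. The eIF4 proteins hold the capped end of the messenger RNA and unwind it, and eIF5B joins the large subunit. Phosphorylation of eIF2 slows its recharging by eIF2B, and 4E-binding proteins keep eIF4E from eIF4G, so both steps are control points of protein synthesis. Germ cells and oocytes rely heavily on stored messenger RNA and on translational control.

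Nearly all initiation factor genes had a summit close to an end of the gene, and where the direction of the gene was known it lay almost always at the start. A summit lay within 1 kb of the start or end of 51 of 56 members (91.1%, exact 95% binomial interval 80.4 to 97.0), against 52.9% of all protein-coding genes. Within 10 kb the count was 53 of 56 (94.6%, interval 85.1 to 98.9), against 66.6%. Within 100 bases it was 27 of 56 (48.2%, interval 34.7 to 62.0), against 20.1%. The last member inside 1 kb was Eif4e at 808 bases and the next one outside was Eif4g3 at 1534 bases. The last inside 10 kb was Eif4ebp3 at 3866 bases, and Eif3j2 lay just outside at 10173 bases.

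The promoter sequences that carry these summits are shown for 9 members from the eIF2, eIF2B, eIF2 kinase, eIF3, eIF4A and eIF4G groups, chosen after their values were seen as examples with the summit inside the stretch, and for Eif4a3l1, which has none. They are RefSeq promoters of build GRCm38.p6, matched by gene ID for 44 of the 56 members. Each is given 5′ to 3′ on the strand of the gene, from 220 bases before the listed transcript start to base 30 of the transcript. Capitals mark the 11 bases centred on the summit, and Eif4a3l1 has no capitals.
Eif2d: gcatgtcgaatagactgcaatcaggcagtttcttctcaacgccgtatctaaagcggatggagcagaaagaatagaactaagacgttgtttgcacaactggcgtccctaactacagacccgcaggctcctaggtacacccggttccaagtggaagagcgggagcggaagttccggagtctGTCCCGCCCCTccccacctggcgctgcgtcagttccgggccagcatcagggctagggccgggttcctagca
Eif2b4: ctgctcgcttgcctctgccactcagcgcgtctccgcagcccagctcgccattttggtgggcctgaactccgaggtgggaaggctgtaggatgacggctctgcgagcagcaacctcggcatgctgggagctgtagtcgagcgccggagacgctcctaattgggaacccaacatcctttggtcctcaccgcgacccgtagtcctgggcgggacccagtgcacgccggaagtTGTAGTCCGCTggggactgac
Eif2ak1: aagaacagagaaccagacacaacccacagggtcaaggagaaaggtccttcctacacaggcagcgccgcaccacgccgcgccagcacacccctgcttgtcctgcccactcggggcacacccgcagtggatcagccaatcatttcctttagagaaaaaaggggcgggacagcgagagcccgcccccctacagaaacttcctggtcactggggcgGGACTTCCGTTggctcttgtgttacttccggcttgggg
Eif3m: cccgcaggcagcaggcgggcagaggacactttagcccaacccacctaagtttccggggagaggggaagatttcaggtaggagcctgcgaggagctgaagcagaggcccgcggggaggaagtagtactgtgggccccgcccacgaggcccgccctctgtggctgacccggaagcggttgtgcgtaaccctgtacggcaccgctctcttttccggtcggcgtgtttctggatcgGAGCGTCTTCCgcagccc
Eif3f: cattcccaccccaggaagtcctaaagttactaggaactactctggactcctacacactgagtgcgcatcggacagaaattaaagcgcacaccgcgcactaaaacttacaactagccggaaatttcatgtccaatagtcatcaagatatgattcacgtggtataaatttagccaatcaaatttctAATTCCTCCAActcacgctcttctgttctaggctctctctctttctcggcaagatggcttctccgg
Eif4b: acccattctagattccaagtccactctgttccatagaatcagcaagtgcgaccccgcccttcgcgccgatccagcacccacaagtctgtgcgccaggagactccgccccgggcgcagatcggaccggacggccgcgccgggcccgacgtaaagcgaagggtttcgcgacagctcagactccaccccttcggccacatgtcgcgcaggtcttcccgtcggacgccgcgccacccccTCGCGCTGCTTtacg
Eif4g1: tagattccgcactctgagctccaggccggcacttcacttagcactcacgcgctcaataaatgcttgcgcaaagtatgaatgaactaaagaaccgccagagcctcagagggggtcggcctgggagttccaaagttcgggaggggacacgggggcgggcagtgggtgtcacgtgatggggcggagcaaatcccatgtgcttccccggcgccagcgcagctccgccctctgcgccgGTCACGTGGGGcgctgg
Eif4g3: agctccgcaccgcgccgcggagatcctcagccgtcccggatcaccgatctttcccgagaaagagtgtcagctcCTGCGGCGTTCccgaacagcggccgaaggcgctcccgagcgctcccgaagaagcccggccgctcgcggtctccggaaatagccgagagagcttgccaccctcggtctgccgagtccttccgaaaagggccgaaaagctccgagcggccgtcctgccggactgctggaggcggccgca
Eif4a3: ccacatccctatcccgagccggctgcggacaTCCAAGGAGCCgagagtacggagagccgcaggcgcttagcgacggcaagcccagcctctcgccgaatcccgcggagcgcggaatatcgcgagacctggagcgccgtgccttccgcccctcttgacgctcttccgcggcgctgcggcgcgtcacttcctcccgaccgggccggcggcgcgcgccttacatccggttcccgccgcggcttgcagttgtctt
Eif4a3l1: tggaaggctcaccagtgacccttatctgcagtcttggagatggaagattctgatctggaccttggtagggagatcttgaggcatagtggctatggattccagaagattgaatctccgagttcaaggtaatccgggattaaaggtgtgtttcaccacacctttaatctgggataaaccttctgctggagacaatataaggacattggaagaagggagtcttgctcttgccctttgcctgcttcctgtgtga

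The Eif2d stretch is chr1:131152987-131153236 on the plus strand, with the summit 36 bases before the transcript start. The Eif2b4 stretch is chr5:31193110-31193359 on the minus strand, with the summit 14 bases after the transcript start. The Eif2ak1 stretch is chr5:143817572-143817821 on the plus strand, with the summit 3 bases before the transcript start. The Eif3m stretch is chr2:105016998-105017247 on the minus strand, with the summit 17 bases after the transcript start. The Eif3f stretch is chr7:108934195-108934444 on the plus strand, with the summit 31 bases before the transcript start. The Eif4b stretch is chr15:102073553-102073802 on the plus strand, with the summit 20 bases after the transcript start. The Eif4g1 stretch is chr16:20672507-20672756 on the plus strand, with the summit 18 bases after the transcript start. The Eif4g3 stretch is chr4:137993235-137993484 on the plus strand, with the summit 142 bases before the transcript start. The Eif4a3 stretch is chr11:119300014-119300263 on the minus strand, with the summit 184 bases before the transcript start. The Eif4a3l1 stretch is chr6:136327319-136327568 on the plus strand. Within these 250 bases, the letters GATA occurred on either strand in the stretches of Eif2d, Eif3f, Eif4a3 and Eif4a3l1. The match closest to a summit lay 24 bases away, in Eif4a3. It lay 43 bases away in Eif3f and 137 bases away in Eif2d.

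Direction was known for 44 members, those with an entry in the promoter table. Of these, 41 (93.2%, interval 81.3 to 98.6) had a summit within 1 kb of the start, against 51.5% of all 17492 protein-coding genes with a known direction. At the end the count was 4 of 44 (9.09%, interval 2.53 to 21.7), against 6.2%. The summit closest to the start lay inside the gene for 26 of the 41 members and before it for 15. Inside made up 63.4% of members, and 62.8% of the 9016 genes of the whole table with such a summit. The members' summits were gathered more tightly: 23 of 41 (56.1%) lay within 100 bases of the start and 37 of 41 (90.2%) within 250 bases, against 39.7% and 73.2% of all such genes. The median offset was 25 bases into the gene for members, with quartiles at -69 and 120, and 55 bases for all such genes, with quartiles at -65 and 201. The 12 members without a direction were Eif1a, Eif2b3, Eif3e, Eif3h, Eif3i, Eif3j2, Eif4e1b, Eif4e3, Eif4ebp1, Eif4ebp3, Eif4g2 and Eif6, and for these only the nearer end is given below.

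**Figure D1:**
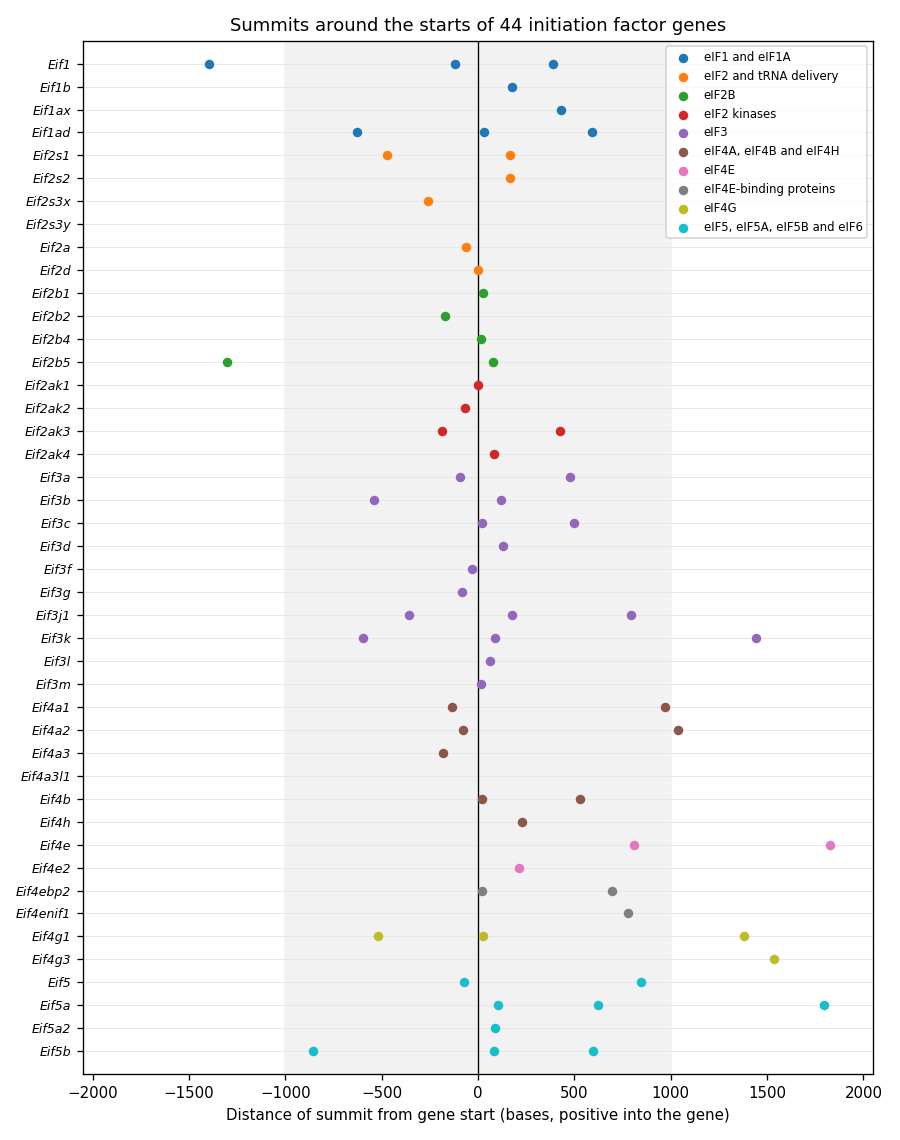
Position of every summit within 2 kb of the start of the 44 members with a known direction, in bases along the gene (x axis, negative before the start), 1 gene per row, coloured by complex. The grey band marks 1 kb on either side. Points cluster at the line that marks the start. For Eif4g3 the plot holds 1 point, at 1534 bases and outside the band, and for Eif2s3y and Eif4a3l1 it holds none.

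The eIF1 group reads the start codon during scanning, and all 5 of its genes had a summit within 1 kb. Eif1, which encodes the scanning factor itself (chromosome 11, 100319949 to 100322099), had summits 1397 and 119 bases before its start and 387 bases into the gene. Its paralogue Eif1b had 1, at 177 bases into the gene. Eif1a, which encodes eIF1A, had 3, at 610 bases outside its lower end and 103 and 938 bases inside. The X-linked Eif1ax, whose protein is also an eIF1A, had 1, at 429 bases into the gene. Eif1ad, which encodes a protein with an eIF1A-like domain, had 3, the closest 31 bases into the gene. The groups of copies thus differed in number of summits and not in having one. These numbers include summits at neighbours: 2 of those of Eif1a also lay within 1 kb of Tmed7. All 3 of Eif1ad lay within 1 kb of Banf1.

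Of the genes for eIF2 and other factors that bring in transfer RNA, 5 of 6 had a summit within 1 kb. Eif2s1, the alpha subunit that the stress kinases phosphorylate, had 2, at 471 bases before its start and 164 bases into the gene. These lay 407 and 228 bases from the start of Atp6v1d, so the first was nearer to that gene. Eif2s2, the beta subunit, had 1 within 1 kb, also 164 bases into the gene. Eif2s3x, the X-linked gamma subunit, had 1, at 258 bases before its start. Eif2s3y, the Y-linked gamma subunit (chromosome Y, 1010562 to 1049134), had none, and its closest summit lay 751395 bases away. Whether the cells carried a Y chromosome is not stated in the labels used here. Eif2a, a separate factor that binds transfer RNA, had a summit 62 bases before its start. Eif2d, a factor of reinitiation and recycling, had one 1 base before the annotated start of the gene, which is 36 bases before the transcript start in the promoter table.

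All 5 genes of eIF2B, the exchange factor that recharges eIF2 with GTP, had exactly 1 summit within 1 kb. It lay 27 bases into Eif2b1, 173 bases before Eif2b2, 14 bases into Eif2b4 and 76 bases into Eif2b5, the catalytic subunit. For Eif2b3 it lay 22 bases outside the nearer end. The median distance over the 5 genes was 27 bases, beside 90 bases over the 51 members with a summit within 1 kb and 142 bases over the 11596 such protein-coding genes. Each distance is that of a single summit, so no error can be given for these medians.

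The 4 kinases that phosphorylate eIF2 in stress each had a summit near the start. It lay 3 bases before the start of Eif2ak1, the heme-regulated kinase HRI. It lay 69 bases before that of Eif2ak2, the kinase PKR that senses double-stranded RNA. Eif2ak3, the endoplasmic reticulum kinase PERK, had 2 within 1 kb, at 189 bases before the start and 424 bases into the gene. Eif2ak4, the amino acid sensor GCN2, had one 81 bases into the gene. Among genes of the stress response linked to eIF2 phosphorylation, 13 of 14 had a summit within 1 kb, against 52.9% of all protein-coding genes. The closest were at Trib3, a pseudokinase gene, at 31 bases and Sesn2, a sestrin gene, at 33 bases.

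The largest group encodes eIF3, the scaffold on the small subunit, and 13 of its 14 genes had a summit within 1 kb, with a median distance of 80 bases. Of the core subunits, Eif3a had summits 94 bases before and 475 bases into the gene, Eif3b had them 539 bases before and 120 bases into it, and Eif3c had them 19 and 498 bases into it. Eif3a and Eif3c belong to an octamer, and of the 6 other subunits in it Eif3k had 2 summits within 1 kb and the rest had 1. Eif3f had 1 summit, 31 bases before its start, Eif3l had 1 at 63 bases into the gene and Eif3m had 1 at 17 bases into it. Eif3k had 2 within 1 kb, at 598 bases before and 90 bases into the gene, the first nearer to the start of Map4k1, at 438 bases. Eif3e had 1 at 56 bases inside its nearer end, and Eif3h had 1 at 18 bases outside it. Eif3d, which can bind the cap itself, had 1 at 129 bases into the gene, and Eif3g, which joins Eif3b and Eif3i, had 1 at 84 bases before its start. Eif3i had 2, at 80 and 245 bases outside its 2 ends.

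Eif3j is a loosely held subunit with 2 genes in this annotation, and they differed. Eif3j1 (chromosome 2, 122028580 to 122053632) had 3 summits, at 357 bases before its start and 177 and 791 bases into the gene. Eif3j2 (chromosome 18, 43475418 to 43477836) spans 2419 bases, against 25053 bases for Eif3j1, and had none within 10 kb.

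The helicase eIF4A unwinds the leader of the messenger RNA, and eIF4B and eIF4H stimulate it. Within 1 kb, 5 of these 6 genes had a summit. Eif4a1 had 2 near its start, at 136 bases before it and 970 bases into the gene, and another 542 bases past its end. Eif4a2 had one 78 bases before its start and another 611 bases past its end. Eif4b had 2, at 20 and 530 bases into the gene, and Eif4h had 1, at 228 bases into it. Eif4a3, whose protein is part of the exon junction complex (chromosome 11, 119288363 to 119300043), had 1, at 184 bases before its start. Its short relative Eif4a3l1 (chromosome 6, 136327539 to 136329983) had none, and the closest summit lay 138726 bases away. The promoter window of Eif4a3l1 held 3 CpG dinucleotides in 300 bases and that of Eif4a3 held 42. Whether CpG content bears on the missing summit was not tested.

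The cap-binding proteins of the eIF4E family all had a summit within 1 kb, at a median distance of 382 bases. That median is from the annotated ends of the gene, and Eif4e and Eif4e2 lay closer to a listed transcript start. Eif4e had its closest at 808 bases into the gene, and 269 bases from the nearer of its 2 listed transcript starts. Eif4e1b, the oocyte form, had 2, at 552 and 923 bases outside its 2 ends. Eif4e2, whose protein 4EHP represses translation, had 1 at 212 bases into the gene and 184 bases from a listed start. Eif4e3 had 2, at 125 bases inside and 771 bases outside its nearer end.

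Among proteins that bind eIF4E, 3 of 4 genes had a summit within 1 kb. Eif4ebp2 had 2, at 21 and 694 bases into the gene, and Eif4ebp1 had 1 at 434 bases inside its nearer end. Eif4ebp3 had none, and its closest summit, at 3866 bases, lay 121 bases from an end of Sra1. Eif4enif1, whose protein 4E-T carries eIF4E into the nucleus and represses messenger RNAs, had 1 at 777 bases into the gene. It has 4 listed transcript starts, and that summit lay 101 bases from the nearest of them. The same summit lay 98 bases from the start of Gm51877, nearer than to either annotated end of Eif4enif1.

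The eIF4G scaffolds link eIF4E, eIF4A and eIF3. Eif4g1 (chromosome 16, 20672720 to 20692883) had 4 summits within 1 kb, the most of any member, at 517 bases before its start, 25 bases into the gene, and 378 bases before and 368 bases past its end. Eif4g2, whose protein DAP5 lacks the eIF4E site, had 2 around its nearer end, at 116 bases outside and 898 bases inside. Eif4g3 (chromosome 4, 137991779 to 138207086) had none within 1 kb of the annotated gene, but its summit at 137993313 lay 142 bases before a listed transcript start. Measured from any listed start, 42 of 44 members (95.5%, interval 84.5 to 99.4) had a summit within 1 kb, against 55.7% of all genes with a known direction, and the 2 without one were Eif2s3y and Eif4a3l1.

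All 5 genes of the group of eIF5, eIF5A, eIF5B and eIF6 had a summit within 1 kb. Eif5, the GTPase-activating protein for eIF2, had 2, at 72 bases before and 846 bases into the gene. Eif5a, the hypusine-containing factor that helps ribosomes past difficult stretches, had 2, at 104 and 624 bases into the gene, and its paralogue Eif5a2 had 1 at 87 bases. Eif5b, which joins the subunits, had 3, at 859 bases before and 81 and 598 bases into the gene. The first lay 143 bases from the start of Txndc9, nearer than to Eif5b. Eif6, which keeps the large subunit from joining too early, had 2, at 456 bases inside one end and 669 bases outside the other.

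**Figure D2:**
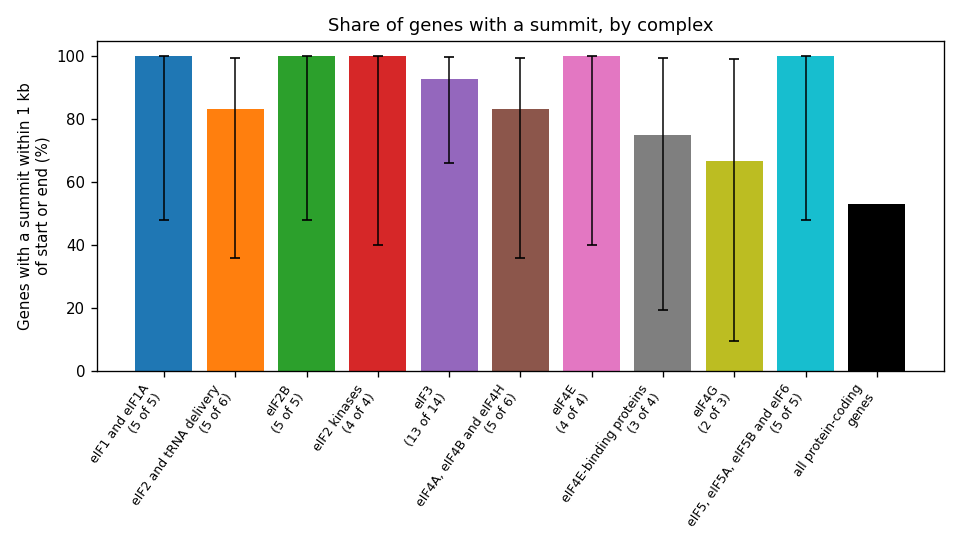
Share of genes with a summit within 1 kb of start or end (y axis, percent) for each group of members, with exact 95% binomial intervals as thin lines, and for all protein-coding genes (black, no interval drawn) at the right. The shares run from 66.7% for the 3 eIF4G genes to 100% in 5 groups, and with 3 to 14 genes per group the intervals overlap.

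Copies of a factor did not always match. Among 10 sets of paralogues, 5 had a summit within 1 kb of every copy: Eif1 with Eif1b, Eif1a with Eif1ax, Eif4a1 with Eif4a2, the 4 Eif4e genes, and Eif5a with Eif5a2. The other 5 sets each lacked it at a single copy, namely Eif2s3y, Eif3j2, Eif4a3l1, Eif4ebp3 and Eif4g3. These are the same 5 of 56 members that had no summit within 1 kb. The sets were put together by hand, so their count depends on the grouping, and no such count over other paralogues was made. For Eif4g3 the lack holds for the annotated ends alone, since a summit lay 142 bases from a listed transcript start. Of the 11 pseudogenes with such a symbol, 1 had a summit within 1 kb (9.09%, interval 0.23 to 41.3), against 1.93% of all 9955 pseudogenes. It was Eif2s3x-ps1, at 590 bases. Within 10 kb the count was also 1 of 11, against 14.6% of all pseudogenes.

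**Figure D3:**
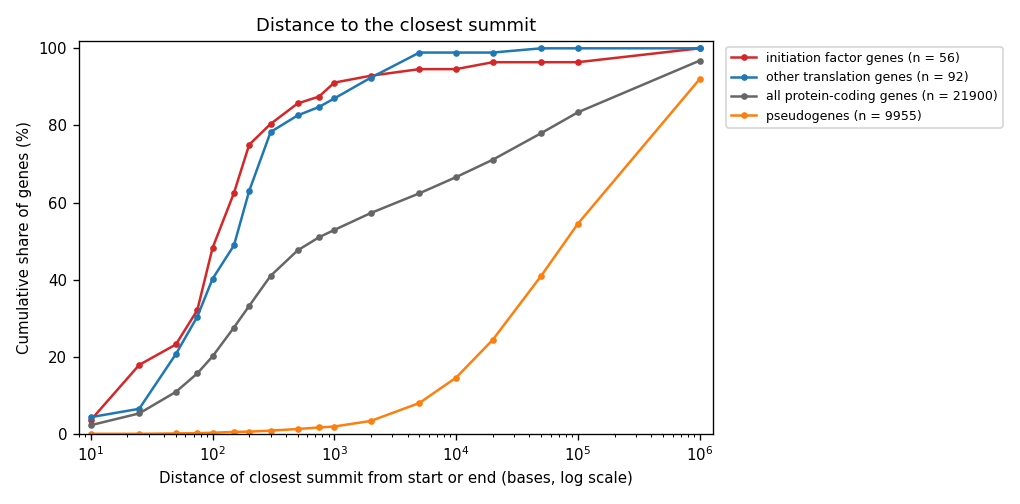
Cumulative share of genes (y axis, percent) whose closest summit lies within a given distance of start or end (x axis, bases, log scale), for initiation factor genes, other translation genes, all protein-coding genes and pseudogenes. The initiation factor curve passes 80.4% at 300 bases and is almost flat beyond 1 kb, where it stands at 91.1% and all protein-coding genes at 52.9%.

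Together the members had 146 summits within 10 kb, with a median of 2 per gene and a range of 0 to 8, against a median of 1 over all protein-coding genes. Gene length was alike, with a median of 18500 bases for members and 17150 bases for all. Within 1 kb, 28 members had 1 summit, 16 had 2, 6 had 3 and 1 had 4. The median there was 1 both for members, with quartiles at 1 and 2, and for all protein-coding genes, with quartiles at 0 and 1. Of the 146 summits, 82 lay within 1 kb of the member and 64 farther out. Of the 82, 25 also lay within 1 kb of another protein-coding gene, and some of these were nearer to it than to the member. Of the 64, 37 were nearer to an end of another protein-coding gene, and 22 of the 64 lay within 1 kb of one.

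The members with most summits within 10 kb show this. Eif4a1 had 8, and 6 of them were nearer to another gene: 2 to Cd68, 2 to Senp3, 1 to Sox15 and 1 to Mpdu1, which lay 2 bases from the start of that gene. Eif3k had 7, of which 2 lay nearer to Actn4 and 1 to Map4k1. Eif4g1 had 6, of which 2 lay nearer to Fam131a. Eif4b, Eif4ebp2 and Eif5a had 5 each. Of those of Eif4ebp2, 2 were nearer to Nodal, a signalling ligand gene, of those of Eif5a, 2 to Gps2, and of those of Eif4b, 3 to Tns2.

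Some starts were shared with a neighbour. For 13 of the 51 members with a summit within 1 kb (25.5%), the closest summit also lay within 1 kb of another protein-coding gene. Over all protein-coding genes this held for 2898 of 11596, a share of about the same size. Eif1ad and Banf1 shared a summit 31 and 32 bases from their starts. Eif2b1 and Gtf2h3 shared one at 27 and 44 bases, Eif2a and Serp1 one at 62 and 125 bases, and Eif2b4 and Snx17 one at 14 and 137 bases. At such places the position cannot tell which gene the summit belongs to.

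Summits near both ends were found for 7 of 56 members (12.5%, interval 5.18 to 24.1), against 4.02% of the 19304 protein-coding genes longer than 2 kb. In most of the 7, 1 of the summits stood at a neighbour. For Eif4a1 it lay 224 bases from the start of Cd68, for Eif4e1b 280 bases from that of Tspan17, for Eif4g1 157 bases from that of Fam131a, for Eif6 64 bases from that of BC029722, and for Eif3i 59 bases from that of Tmem234. For Eif4a2 it lay 795 bases from the end of Rfc4. For Eif3b the closest other gene was 1200 bases away.

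Several members hold within their span small nucleolar RNA genes, whose products guide the modification of ribosomal RNA. The annotation places 13 of them in 7 members, 5 of these in Eif4a2 and 3 in Eif4a1. No summit lay inside them. The closest was Snord2 in Eif4a2, 448 bases from a summit, and the distances of the other 12 ran from 1440 to 15833 bases.

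The promoter windows of the members, from 250 bases before to 50 bases after the listed start farthest upstream, were rich in G and C. Their median GC content was 61.0%, against 56.3% over all 17492 protein-coding windows, and their median number of CpG dinucleotides was 23.5, against 13.0. Over all genes with a summit within 1 kb the medians were 61.7% and 22.0, and over those without they were 48.7% and 3.0. A summit lay inside the window itself for 25 of 44 members (56.8%), against 25.9% of all genes. Over all genes with a summit within 1 kb it was 45.8%.

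Because ZGLP1 has GATA-like fingers, the windows were searched for GATA on both strands. It was found in 18 of 44 members (40.9%), against 54.0% of all windows. Over all genes it was found in 39.4% of windows with a summit and in 67.8% of windows of genes with none there or within 1 kb. These groups differ in GC content: among windows of 55.5% to 66.6% GC, the middle range of the members, GATA was held by 43.1% of the 2341 windows with a summit and 44.5% of the 1399 of genes with none within 1 kb, and by 8 of 22 members (36.4%). The longer AGATAA was found in 2 of 44 members (4.55%), Eif3c and Eif4a3l1, against 9.94% of all windows. AGATAA contains GATA, so these counts overlap.

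Letters of other promoter motifs were counted the same way, on both strands. GGGCGG, the GC box, was in 32 of 44 members (72.7%), against 46.3% of all windows, and CCGGAA, the core of ETS sites, was in 20 of 44 (45.5%), against 19.1%. Within the same GC range, the ETS letters were in 11 of 22 members (50.0%), in 36.7% of all windows with a summit and in 12.7% of those of genes without one. The GC box letters were there in 18 of 22 members (81.8%), in 70.0% of all windows with a summit and in 49.5% of those of genes without one. CACGTG, the E-box, was in 8 of 44 (18.2%), against 7.91%, and AAGATGG, found in YY1 sites, in 5 of 44 (11.4%), against 6.35%. Over all windows with a summit, at any GC content, the E-box stood at 11.6% and the YY1 letters at 8.04%. Within the GC range, the E-box was in 3 of 22 members (13.6%) and in 12.0% of all windows with a summit. The YY1 letters were there in 2 of 22 members (9.09%) and in 8.84% of all windows with a summit. CCAAT was in 14 of 44 (31.8%), against 39.2%. A match is only the presence of these letters in the window.

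**Figure D4:**
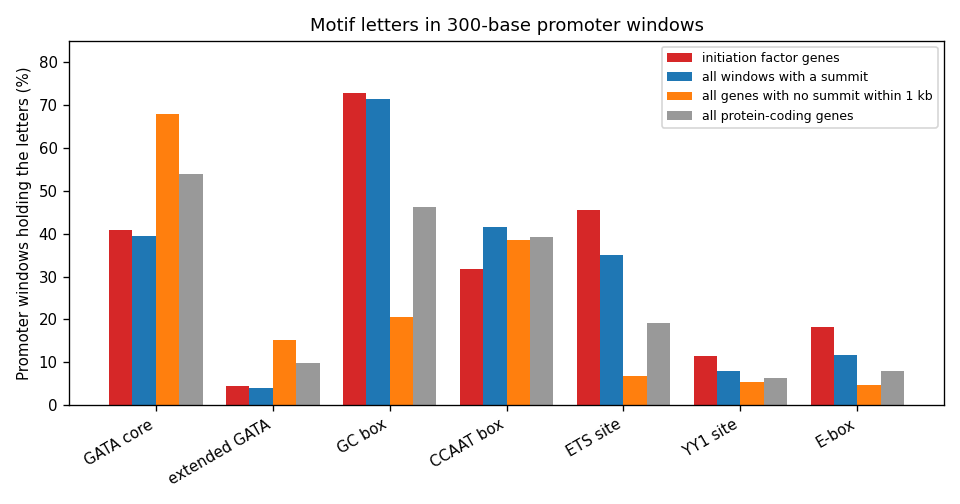
Share of 300-base promoter windows (y axis, percent) that hold each motif's letters on either strand, for the 44 initiation factor genes, all windows with a summit inside, genes with no summit within 1 kb and all protein-coding genes. GATA is held by 40.9% of members and 67.8% of genes without a summit, and the GC box by 72.7% and 20.5%, while all windows with a summit hold the GC box at 71.5%. GC content is not matched in the plot: at 55.5% to 66.6% GC, genes without a summit hold GATA at 44.5% and the GC box at 49.5%.

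Other genes of the translation pathway were set beside the members in 6 lists of 92 genes, chosen with earlier results of these data known. A summit within 1 kb was found for 80 of them (87.0%, interval 78.3 to 93.1), against 52.9% of all protein-coding genes, and within 10 kb for 91 (98.9%), against 66.6%. The elongation, termination and recycling list had 15 of 16, with the release factor gene Gspt2 at 20 bases and the elongation factor gene Eef1a1 at 44 bases. The tRNA synthetase list had 19 of 20, with Iars at 6 bases and Gars at 7 bases. The list of mTOR and other kinase control had 12 of 13, with Rps6kb1 at 7 bases and Rptor at 49 bases. The partners of initiation had 14 of 19, with Abcf1 and Dhx29 at 34 bases, and mitochondrial translation had 7 of 10, with Tsfm at 28 bases and Gfm2 at 37 bases. The intervals of these last lists, 48.8 to 90.9% for the partners and 34.8 to 93.3% for mitochondrial translation, include the 52.9% of all protein-coding genes. The gene without a summit within 10 kb was Pabpc1l, a poly(A)-binding protein gene of oocytes, at 20421 bases. A pair of elongation factor paralogues, chosen after their values were seen, also differed between copies: Eef1a1 had 4 summits within 1 kb, and Eef1a2, the muscle and neuron form, had none, its closest at 4684 bases.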

How the data were processed

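The data are 1 list of peak summits from anti-V5 chromatin immunoprecipitation. The deposited values are positions in bases on mm10, and neither a library nor any measure of peak strength is given. Per the submitters' processing notes, the tools included MACS2 2.1.1.20160309, HOMER 4.9.1, Bowtie 1.1.2, cutadapt 1.9.1, Trim Galore 0.4.1 and SAMtools 1.3, with Picard 2.1.0 and bedtools, and no settings. The libraries behind each peak, the threshold and the treatment of reads that match several places are not given in the sources used here. In all 32927 rows both positions are identical, and a distance may therefore be off by 1 base.

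Genes, starts and ends came from the RefSeq table of GRCm38. Strand, transcript starts and sequence came from the RefSeq promoter table of GRCm38.p6, which held 17492 of the 21900 protein-coding genes. For each gene the distance of the closest summit from its start or end was taken, and its share beside that of all protein-coding genes. Intervals of shares are exact binomial ones at 95% and stand for counting error alone. No test between groups was made, because the list names no library and each group has 1 library. Motif letters were searched on both strands of 1 window per gene, the one farthest upstream.

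Members and gene lists were chosen with earlier results of these data known. Named genes are all members, the 2 genes with the closest summit in each other translation list, and those with none within 10 kb. Neighbouring genes that share or lie nearer to a member's summit, and Eef1a2, were chosen after their values were seen. On simulated summits, 300 of 300 genes gave the distance and number found by direct search, and 200 of 200 genes given a summit at their start were found. Alternatives covered other distances, either end alone, merged summits, nearest genes, subunits, autosomes and another gene background. The software was pandas 2.3.3, numpy 2.4.6 and SciPy 1.17.1 under Python 3.11.15, with matplotlib 3.10.9 for plots.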

Additional observations from a re-analysis of the deposited data

How the results depend on the processing

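Of 47 alternative values, 34 were counted as close to the value reported. For shares, close meant inside the 95% interval of the reported value. For medians and counts a looser fold limit was used, which let larger shifts count as close. The median closest distance went from 90 to 134 bases with summits merged within 1 kb. The number of complexes with a summit at every gene went from 5 within 1 kb to 7 within 10 kb, as did that of paralogue sets. Wherever a value over all genes stood beside an alternative, the members or listed genes stayed on the same side of it. Being on the same side says nothing of the size of the gap, which was much smaller away from gene starts. The alternatives for complexes, paralogue sets and closest distances had no such value. The share of members with a summit within 1 kb was 91.1%. It moved to 9.09% at the gene end alone (interval 2.53 to 21.7), and the 6.2% of all genes lies inside that interval. It moved to 48.2% within 100 bases (20.1% of all genes) and to 76.8% without summits within 1 kb of several genes (40.8%), both by construction fewer summits or less room. Between 500 bases and 5 kb it ran from 85.7% to 94.6%. Without olfactory receptor, vomeronasal receptor and Gm genes, the share of all genes was 59.9%. The share of members within 10 kb was 94.6%, and moved to 46.4% (26 of 56) with only summits over 1 kb from every gene boundary, against 35.6% of all genes. That alternative removes the summits at starts. The median of 2 summits per member within 10 kb became 5 within 50 kb, against 3 for all genes. Other translation genes stood at 87.0% within 1 kb and 98.9% within 10 kb. Chosen after seeing the data were 100 bases, any listed start, summits away from several genes, any window for GATA, and the settings for complexes, paralogue sets and closest distances. A stricter peak threshold could not be set, since the list has no score. No paired analysis was possible because the summit list names no library and every group is a lone one. The lack of a summit cannot be weighed further with the depth unknown.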
